A study of Mus musculus with 9 samples.

Results

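The lipoxygenase and leukotriene genes described here were Pla2g4a, Alox5, Alox5ap, Lta4h, Ltc4s, Ltb4r1, Cysltr1, Alox15, Alox12 and Ephx2. They were picked by name, and each was read from the probe sets that carry its symbol and no other. All 10 genes were measured, by 12 of the 34365 probe sets of the array, out of 22180 genes with such a probe set. Alox5 and Alox5ap had more than 1, and the probe set with the highest mean over the 9 arrays stands for the gene. The arrays came from F4/80+ macrophages sorted out of the colon lamina propria of 4 LysMCre;Arntfl/fl mice and 5 LysMCre mice, 1 array per mouse. LysMCre;Arntfl/fl mice carry the floxed Arnt allele on both chromosomes and the LysMCre allele, and LysMCre mice carry LysMCre alone, so that Cre itself is shared by both groups. All were female C57BL/6 animals given 3% DSS (dextran sodium sulfate, which injures the colon epithelium) for 5 days and plain water for 3 more, and were sampled on Day 8. Cre is driven from the lysozyme M locus, which is active in macrophages and also in neutrophils, so that Arnt can be lost in both. The sources used here give no ages.

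Arachidonic acid, once freed from membranes by phospholipase A2, is oxygenated by lipoxygenases. The 5-lipoxygenase Alox5, helped by its membrane partner Alox5ap (FLAP), makes leukotriene A4, which Lta4h turns into the neutrophil attractant leukotriene B4 and Ltc4s into the cysteinyl leukotrienes. Mouse macrophages also use Alox15 (the leukocyte 12/15-lipoxygenase), and a cytochrome P450 branch makes epoxides that Ephx2 hydrolyses. Arnt is the partner with which the hypoxia-inducible factors and the aryl hydrocarbon receptor bind DNA.

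The RMA values are on the log2 scale and reflect RNA in the sorted population, so that fewer cells of a type and less RNA per cell cannot be told apart. Array medians ran from 5.98 to 6.04, and the correlation of array pairs from 0.976 to 0.990. Arnt was 8.73 ± 0.10 in LysMCre;Arntfl/fl (SD, n = 4) and 9.39 ± 0.10 in LysMCre macrophages (SD, n = 5), with no overlap (log2 fold change -0.66 with a standard error of 0.09, adjusted p = 0.0214 from limma). The sources used here do not say how much of this probe set lies outside the deleted part. The means of 10 macrophage markers covered 10.81 to 10.95 in LysMCre;Arntfl/fl and 10.72 to 11.08 in LysMCre arrays. The pan-leukocyte gene Ptprc averaged 12.10 in LysMCre;Arntfl/fl and 12.11 in LysMCre macrophages, and the F4/80 gene Adgre1 averaged 10.94 in LysMCre;Arntfl/fl and 11.09 in LysMCre macrophages. The genotypes did not overlap for the markers Cx3cr1, Itgam and Cd14, none of which passed the threshold. Over all probe sets, 2.52% were higher and 2.22% lower in LysMCre;Arntfl/fl without overlap. Cd14 averaged 12.23 in LysMCre;Arntfl/fl and 12.12 in LysMCre macrophages (log2 fold change 0.12, adjusted p = 0.587 from limma). The fractalkine receptor gene Cx3cr1 averaged 8.94 in LysMCre;Arntfl/fl and 9.78 in LysMCre macrophages (log2 fold change -0.83, adjusted p = 0.103 from limma). The CD11b gene Itgam averaged 12.23 in LysMCre;Arntfl/fl and 11.79 in LysMCre macrophages (log2 fold change 0.44, adjusted p = 0.160 from limma). The means of 13 neutrophil markers lay higher in LysMCre;Arntfl/fl, between 9.14 and 9.77, against 7.70 to 8.84 in LysMCre arrays, where replicates 4 and 5 were the highest. The log2 fold change was above 0 for all 13 of these markers (median 1.36), and Ngp, a granule protein gene, was called higher. As a guide to the background of the array, the means of 1108 probe sets of olfactory receptor genes, most of which are silent outside the nose, had a 95th percentile of 6.14.

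Most of the 10 genes did not differ between the genotypes beyond the threshold. A gene was called where the p from limma, adjusted over all probe sets, was below 0.05 and the fold change above 1.5. Of the 10 genes, 1 was called lower in LysMCre;Arntfl/fl, the cysteinyl leukotriene receptor Cysltr1, beside 0.151% of all probe sets. None was called higher, beside 0.143% of all probe sets, and SAM-type scores also called 1 lower and 0 higher. The methods' t-test called 0 in either direction (Cysltr1, adjusted p = 0.189). At an unadjusted p below 0.05, 3 genes were higher (Alox5ap, Ephx2 and Ltb4r1, beside 5.72% of all probe sets) and 2 lower (Cysltr1 and Pla2g4a, beside 5.79%). The arrays of the genotypes did not overlap for 1 gene that was higher, Ephx2 (2.52% of all probe sets), and for 2 that were lower, Cysltr1 and Pla2g4a (2.22%). The log2 fold change was positive for 5 genes and negative for 5, with a median of 0.02, beside 0.01 over all probe sets.

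**Figure D1:**
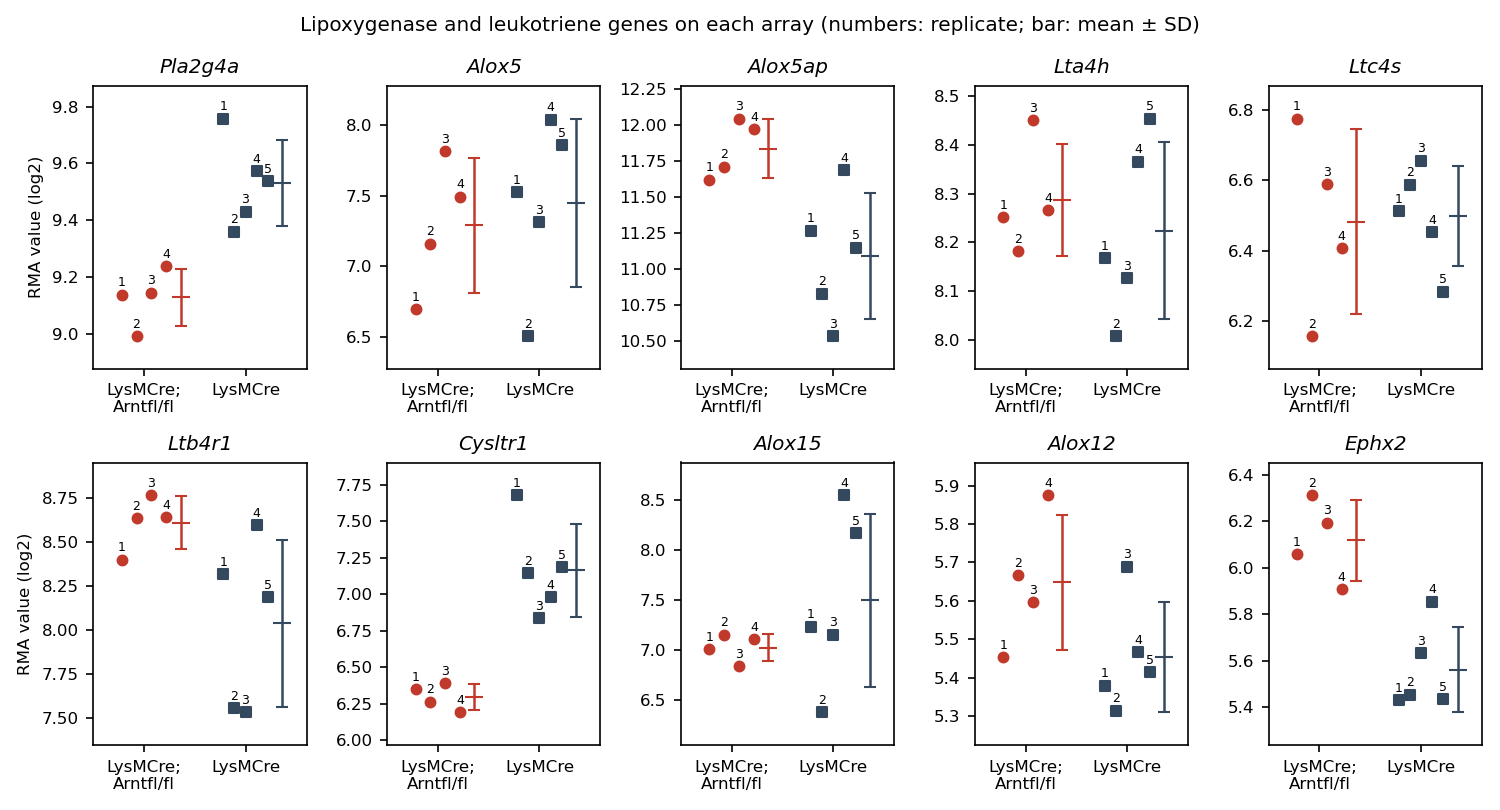
RMA values (log2) of the 10 genes on each array, LysMCre;Arntfl/fl (circles, n = 4) left of LysMCre (squares, n = 5), with the replicate number beside each point, the mean and the SD. Each panel has its own axis. The genotypes do not overlap for Pla2g4a, Cysltr1 and Ephx2, and the LysMCre arrays of Alox15 spread from 6.38 to 8.54.

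Pla2g4a (chromosome 1, 149829618 to 149961290, GRCm38.p6) encodes cytosolic phospholipase A2 alpha, which frees the arachidonic acid that the whole pathway starts from. It measured 9.14, 8.99, 9.14 and 9.24 in LysMCre;Arntfl/fl replicates 1 to 4, against 9.76, 9.36, 9.43, 9.57 and 9.54 in LysMCre replicates 1 to 5. Every LysMCre;Arntfl/fl array was lower than every LysMCre array, and LysMCre replicate 1 was the highest of all. The mean was 9.13 ± 0.10 in LysMCre;Arntfl/fl and 9.53 ± 0.15 in LysMCre macrophages (log2 fold change -0.40, standard error 0.10, 1.32-fold lower). The gene did not pass the adjusted threshold (adjusted p = 0.111 from limma) or the fold threshold. Its log2 fold change stayed between -0.45 and -0.35 when any 1 array was left out.

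Alox5 (chromosome 6, 116410071 to 116461178), the enzyme that commits arachidonic acid to leukotrienes, showed no difference beyond the spread of its arrays. It measured 6.70, 7.16, 7.82 and 7.50 in LysMCre;Arntfl/fl, against 7.53, 6.51, 7.31, 8.04 and 7.86 in LysMCre macrophages. The groups overlapped almost entirely, with LysMCre replicate 2 the lowest array and LysMCre replicates 4 and 5 the highest. The log2 fold change was -0.16 with a 95% interval of -0.83 to 0.52 (adjusted p = 0.908 from limma), an interval that holds a 1.5-fold decrease but no 1.5-fold increase. Without LysMCre;Arntfl/fl replicate 1 the log2 fold change was 0.04. A dimmer probe set of Alox5 covered 6.04 to 6.22 in LysMCre;Arntfl/fl and 5.85 to 6.10 in LysMCre arrays (log2 fold change 0.13, adjusted p = 0.619), and did not follow the array order of the brighter one. It was read near the background, at means of 6.11 in LysMCre;Arntfl/fl and 5.99 in LysMCre macrophages.

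Alox5ap (chromosome 5, 149265004 to 149288153) encodes FLAP, the membrane protein that hands arachidonic acid to 5-lipoxygenase. It measured 11.62, 11.71, 12.05 and 11.97 in LysMCre;Arntfl/fl macrophages, against 11.27, 10.83, 10.54, 11.69 and 11.15 in LysMCre macrophages. All LysMCre;Arntfl/fl arrays were high, but LysMCre replicate 4 lay above LysMCre;Arntfl/fl replicate 1. The means were 11.84 ± 0.20 in LysMCre;Arntfl/fl and 11.09 ± 0.44 in LysMCre macrophages (log2 fold change 0.74, standard error 0.20, 1.68-fold higher), which did not pass the adjusted threshold (adjusted p = 0.156 from limma). The dimmer Alox5ap probe set gave a log2 fold change of 0.70 with a standard error of 0.14 (adjusted p = 0.0699). There the LysMCre;Arntfl/fl arrays, at 6.04 to 6.24, did not overlap with the LysMCre arrays, at 5.14 to 5.92. This probe set was read near the background, at means of 6.17 in LysMCre;Arntfl/fl and 5.46 in LysMCre macrophages, and neither probe set was called.

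Lta4h (chromosome 10, 93453396 to 93484896) and Ltc4s (chromosome 11, 50236461 to 50238532), the enzymes at which the pathway divides into leukotriene B4 and the cysteinyl leukotrienes, had overlapping arrays and log2 fold changes near 0. Lta4h measured 8.25, 8.18, 8.45 and 8.27 in LysMCre;Arntfl/fl, against 8.17, 8.01, 8.13, 8.37 and 8.45 in LysMCre macrophages (log2 fold change 0.06, adjusted p = 0.890 from limma). Ltc4s measured 6.77, 6.16, 6.59 and 6.41 in LysMCre;Arntfl/fl, against 6.51, 6.59, 6.66, 6.45 and 6.28 in LysMCre macrophages (log2 fold change -0.02, 95% interval -0.30 to 0.27, adjusted p = 0.982 from limma). The Ltc4s interval leaves out a 1.5-fold change in array signal, and the sign of its log2 fold change turned when single arrays were left out (-0.11 to 0.09). Ltc4s was read not far above the background, since 2.71% of the olfactory receptor probe sets had a higher mean. Whether its RNA was unchanged was not tested.

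The receptors for the products of these branches had log2 fold changes of opposite sign. Cysltr1 (chromosome X, 106576509 to 106603679), the receptor that binds leukotriene D4, was the called gene. It measured 6.35, 6.26, 6.39 and 6.19 in LysMCre;Arntfl/fl macrophages, against 7.68, 7.15, 6.84, 6.98 and 7.19 in LysMCre macrophages. All LysMCre;Arntfl/fl arrays lay together below the lowest LysMCre array, replicate 3, and LysMCre replicate 1 stood highest. Cysltr1 averaged 6.30 ± 0.09 in LysMCre;Arntfl/fl and 7.17 ± 0.32 in LysMCre macrophages, and so was 1.82-fold lower (log2 fold change -0.87 with a standard error of 0.15, adjusted p = 0.0442 from limma). The LysMCre;Arntfl/fl values lay just above the olfactory receptor 95th percentile of 6.14, and 1.81% of those probe sets had a mean above that of Cysltr1 over all arrays. The direction was the same in all 9 fits without 1 array (-0.95 to -0.74), but the call was kept in 2 of them, those that left out LysMCre replicate 1 (adjusted p = 0.0373) or 4 (0.0477). It was lost with LysMCre;Arntfl/fl replicate 1 (0.0698), 2 (0.115), 3 (0.114) or 4 (0.135) left out, and likewise with LysMCre replicate 2 (0.0902), 3 (0.0714) or 5 (0.0972).

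Ltb4r1 (chromosome 14, 55765962 to 55768492) encodes BLT1, the high-affinity leukotriene B4 receptor of neutrophils and other leukocytes. It measured 8.40, 8.63, 8.77 and 8.64 in LysMCre;Arntfl/fl, against 8.32, 7.56, 7.53, 8.59 and 8.18 in LysMCre macrophages. The LysMCre;Arntfl/fl arrays lay close together at the top, while LysMCre replicates 2 and 3 were the low ones and replicate 4 lay within the other group. The means of 8.61 ± 0.15 in LysMCre;Arntfl/fl and 8.04 ± 0.47 in LysMCre macrophages gave a log2 fold change of 0.57 with a standard error of 0.21, which did not pass the threshold (adjusted p = 0.311 from limma).

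Alox15 (chromosome 11, 70344147 to 70390538), the 12/15-lipoxygenase whose products include precursors of pro-resolving lipids, differed in spread more than in level. It measured 7.01, 7.15, 6.84 and 7.11 in LysMCre;Arntfl/fl, against 7.23, 6.38, 7.15, 8.54 and 8.17 in LysMCre macrophages. The LysMCre;Arntfl/fl arrays fell within a narrow band (SD 0.14) inside the range of the LysMCre arrays (SD 0.86), of which replicates 4 and 5 were the high ones and replicate 2 the low one. The log2 fold change was -0.47 with a 95% interval of -1.27 to 0.33 (adjusted p = 0.701 from limma), and it ranged from -0.75 without LysMCre replicate 2 to -0.21 without LysMCre replicate 4. The difference in spread was not tested. LysMCre replicates 4 and 5 also had the highest means of 6 eosinophil markers among the LysMCre arrays, 6.43 and 6.35, in a range of 5.98 to 6.21 in LysMCre;Arntfl/fl and 6.07 to 6.43 in LysMCre arrays. Of these markers, Ccr3, Epx, Prg3 and Il5ra had means below the olfactory receptor 95th percentile of 6.14 in both genotypes. The same replicates were the highest LysMCre arrays for the dendritic cell markers (7.24 and 7.04) and the neutrophil markers (8.84 and 8.50). The part of any of these cells in the Alox15 values was not tested.

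Alox12 (chromosome 11, 70241457 to 70255380), the platelet-type 12-lipoxygenase, measured 5.45, 5.67, 5.60 and 5.88 in LysMCre;Arntfl/fl, against 5.38, 5.31, 5.69, 5.47 and 5.41 in LysMCre macrophages. The groups overlapped (log2 fold change 0.20, adjusted p = 0.549 from limma). Of the olfactory receptor probe sets, 10.5% had a higher mean than Alox12. Alox12 is therefore a value near the background of the array.

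Ephx2 (chromosome 14, 66084372 to 66124522) encodes soluble epoxide hydrolase, which turns the epoxides of arachidonic acid into diols. It measured 6.06, 6.31, 6.19 and 5.91 in LysMCre;Arntfl/fl, against 5.43, 5.45, 5.63, 5.85 and 5.44 in LysMCre macrophages. All LysMCre;Arntfl/fl arrays were higher, by a narrow margin between LysMCre;Arntfl/fl replicate 4 and LysMCre replicate 4. Ephx2 averaged 6.12 ± 0.17 in LysMCre;Arntfl/fl and 5.56 ± 0.18 in LysMCre macrophages, which missed both thresholds (log2 fold change 0.56, standard error 0.12, 1.47-fold, adjusted p = 0.0777 from limma). Without LysMCre replicate 4 it was called higher (log2 fold change 0.63, adjusted p = 0.0460). Of the olfactory receptor probe sets, 7.31% had a higher mean, so that this gene too was read near the background.

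**Figure D2:**
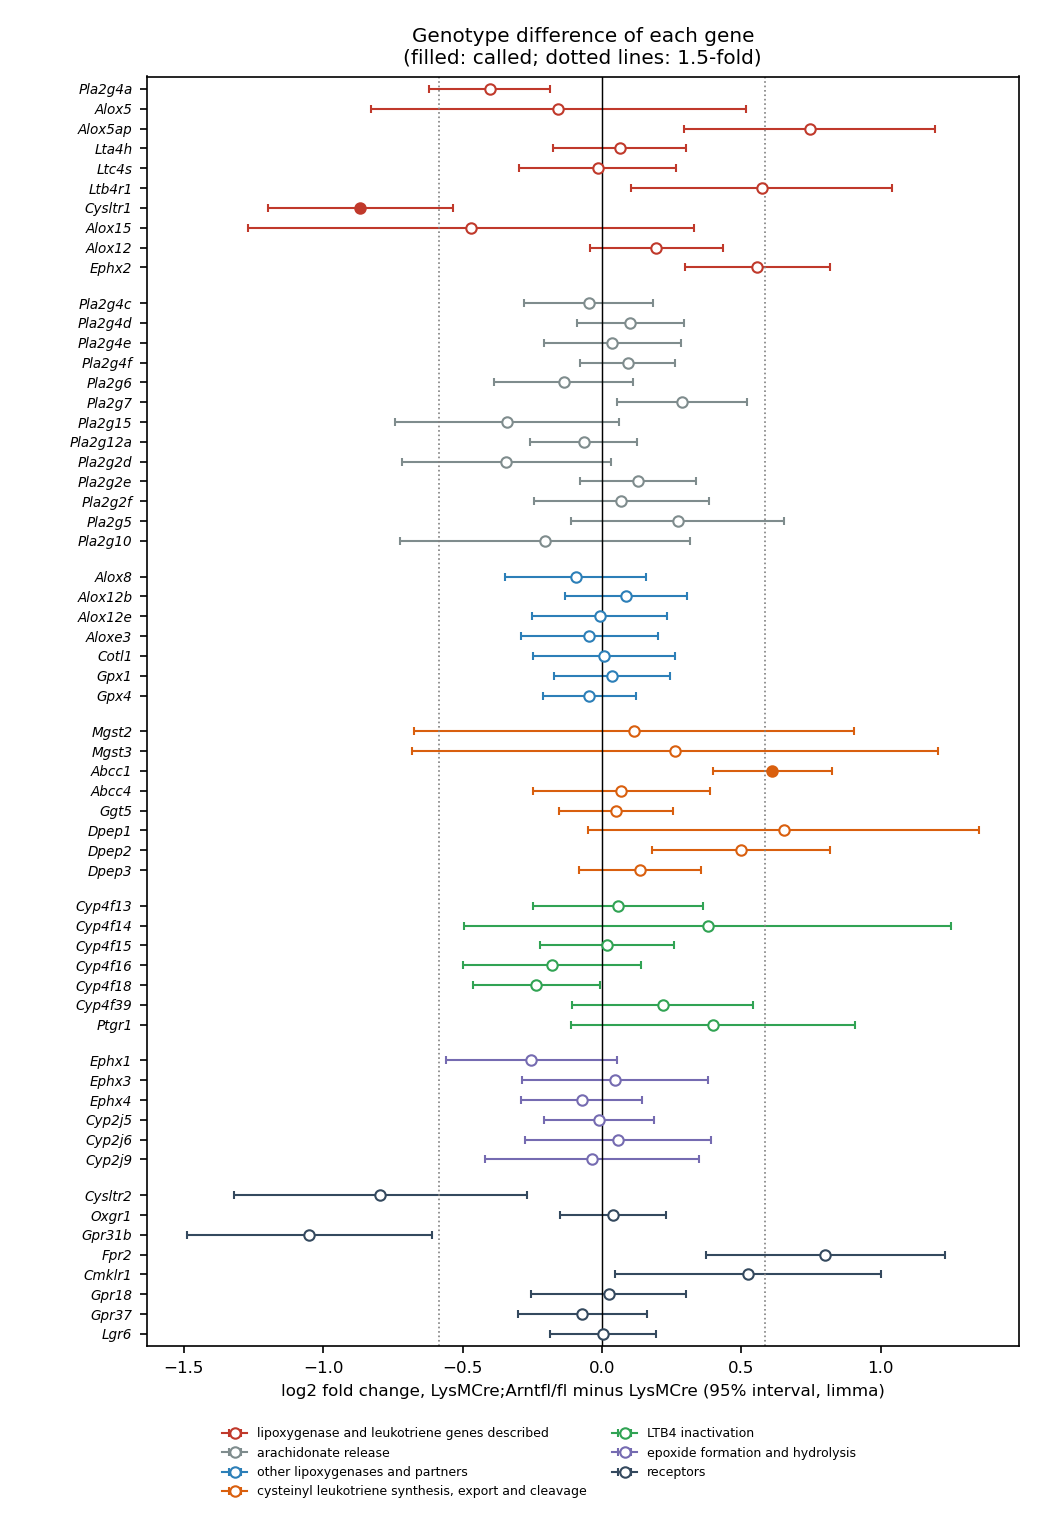
Log2 fold change, LysMCre;Arntfl/fl minus LysMCre, with its 95% interval from limma, for the 10 genes (top) and 49 other genes of the pathway by role. Filled points are called genes, Cysltr1 at -0.87 and Abcc1 at 0.61, and the dotted lines mark a 1.5-fold change.

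The other genes of the pathway were taken from 6 lists by role, of which 49 of 53 genes had a probe set of their own. The log2 fold change was above 0 for 30 of these and below 0 for 19 (median 0.04, beside 0.01 over all probe sets). Abcc1 was called higher (0.143% of all probe sets) and 0 were called lower (0.151%). At an unadjusted p below 0.05, 5 were higher (5.72% of all probe sets) and 3 lower (5.79%). SAM-type scores called Abcc1 higher and 1 gene lower, Gpr31b, and the methods' t-test called 0 in either direction (Abcc1, adjusted p = 0.152).

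The list for making, exporting and cleaving cysteinyl leukotrienes was the one in which all measured genes, 8 of 8, had a log2 fold change above 0 (median 0.20). By their brightest probe sets, all of these but Abcc1 and Dpep2 overlapped between the genotypes, with values as small as 0.05 for Ggt5 and 0.07 for Abcc4. Dpep3 was read near the background, at means of 5.72 in LysMCre;Arntfl/fl and 5.58 in LysMCre macrophages. Ggt1, also on the list, had no probe set of its own. Over all probe sets, 17804 of 34365 were above 0. Of the 8 genes, 2 had an unadjusted p below 0.05 from limma, beside 5.72% of all probe sets that were higher at that p. Abcc1 (chromosome 16, 14361453 to 14474878), the membrane pump that carries leukotriene C4 out of the cell, measured 9.46, 9.79, 9.64 and 9.71 in LysMCre;Arntfl/fl, against 9.14, 8.997, 8.84, 9.11 and 9.10 in LysMCre macrophages. Every LysMCre;Arntfl/fl array was above every LysMCre array (log2 fold change 0.61 with a standard error of 0.10, adjusted p = 0.0349 from limma). Its call was kept with LysMCre;Arntfl/fl replicate 1 (adjusted p = 0.0278) or LysMCre replicate 4 (0.0417) left out. It was lost with LysMCre;Arntfl/fl replicate 2 (0.0889), 3 (0.104) or 4 (0.121) left out, and likewise with LysMCre replicate 1 (0.0539), 2 (0.0714), 3 (0.0805) or 5 (0.0795), at log2 fold changes of 0.56 to 0.67. Dpep1, a dipeptidase that trims leukotriene D4, did not pass (log2 fold change 0.65, adjusted p = 0.478). Its relative Dpep2, named after its values were seen, averaged 9.51 ± 0.34 in LysMCre;Arntfl/fl and 9.02 ± 0.10 in LysMCre macrophages, without overlap (log2 fold change 0.50, adjusted p = 0.185). A dimmer probe set of Dpep2 did overlap, at 6.80 to 8.45 in LysMCre;Arntfl/fl and 6.06 to 8.16 in LysMCre arrays. Its log2 fold change was 0.64 (adjusted p = 0.619 from limma).

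Among 8 receptors for leukotrienes, hydroxy fatty acids and pro-resolving lipids, 5 had a log2 fold change above 0 and 3 below (median 0.01), and none was called by limma. Gpr31b (chromosome 17, 13051321 to 13052280), a receptor for the 12-lipoxygenase product 12-HETE, had the largest log2 fold change in size of the 49 genes. It measured 10.40, 9.26, 9.49 and 9.69 in LysMCre;Arntfl/fl, against 10.70, 10.94, 10.81, 10.50 and 10.85 in LysMCre macrophages. All LysMCre;Arntfl/fl arrays were lower, replicate 1 the least so (log2 fold change -1.05, adjusted p = 0.0586 from limma), and without that array the gene was called (-1.28, adjusted p = 0.00993). Fpr2, a receptor for formyl peptides and for lipoxin A4, was higher without overlap by 0.80 on the log2 scale but did not pass (adjusted p = 0.111). Cysltr2 (chromosome 14, 73025672 to 73049114), the other cysteinyl leukotriene receptor, was named after its values were seen. It measured 7.70, 6.80, 7.62 and 7.55 in LysMCre;Arntfl/fl, against 7.93, 8.43, 8.83, 7.77 and 8.10 in LysMCre macrophages. These did not overlap, as for Cysltr1, and the log2 fold change of -0.80 did not pass the threshold (standard error 0.24, adjusted p = 0.201 from limma).

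The 4 remaining lists had no called gene. Of 13 other phospholipases and related hydrolases, 7 had a log2 fold change above 0 and 6 below. The largest in size were -0.34 for Pla2g15, the lysosomal enzyme, and -0.34 for Pla2g2d, a secreted enzyme (adjusted p = 0.527 and 0.487). A dimmer probe set of Pla2g15 was lower without overlap (log2 fold change -0.44, adjusted p = 0.181). Pla2g7, the platelet-activating factor acetylhydrolase, named after its values were seen, was higher without overlap (11.41 to 11.57 in LysMCre;Arntfl/fl and 10.90 to 11.39 in LysMCre arrays, log2 fold change 0.29, adjusted p = 0.306). Other lipoxygenases and their partners stayed near 0, with a median of -0.01 over 7 genes and the largest values at 0.09 or less in size, for Alox8 (-0.09) and the skin enzyme Alox12b (0.09). The lipoxygenases of this list, Alox8, Alox12b, Alox12e and Aloxe3, were read near the background. Their means in both genotypes lay below the olfactory receptor 95th percentile of 6.14. Of 7 genes that inactivate leukotriene B4, 5 were positive and 2 negative, led by Ptgr1, a leukotriene B4 dehydrogenase (0.40, adjusted p = 0.570), and the hydroxylase gene Cyp4f14 (0.38, adjusted p = 0.797). Cyp4f14 was read near the background, at means of 5.52 in LysMCre;Arntfl/fl and 5.14 in LysMCre macrophages. Cyp4f18, the brightest gene of this list, was named after its values were seen. It averaged 9.22 in LysMCre;Arntfl/fl and 9.46 in LysMCre macrophages, with overlap (log2 fold change -0.24, unadjusted p = 0.0429 and adjusted p = 0.412 from limma). Of 6 other genes of the epoxide branch, 2 were positive and 4 negative, with -0.25 for the microsomal hydrolase Ephx1 (adjusted p = 0.541) and -0.07 for Ephx4. Ephx4, Cyp2j5 and Cyp2j6 had means below 6.14 in both genotypes. Cyp2j9 lay close to that level, at 6.16 in LysMCre;Arntfl/fl and 6.19 in LysMCre macrophages, so that the signs of these genes were read near the background.

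**Figure D3:**
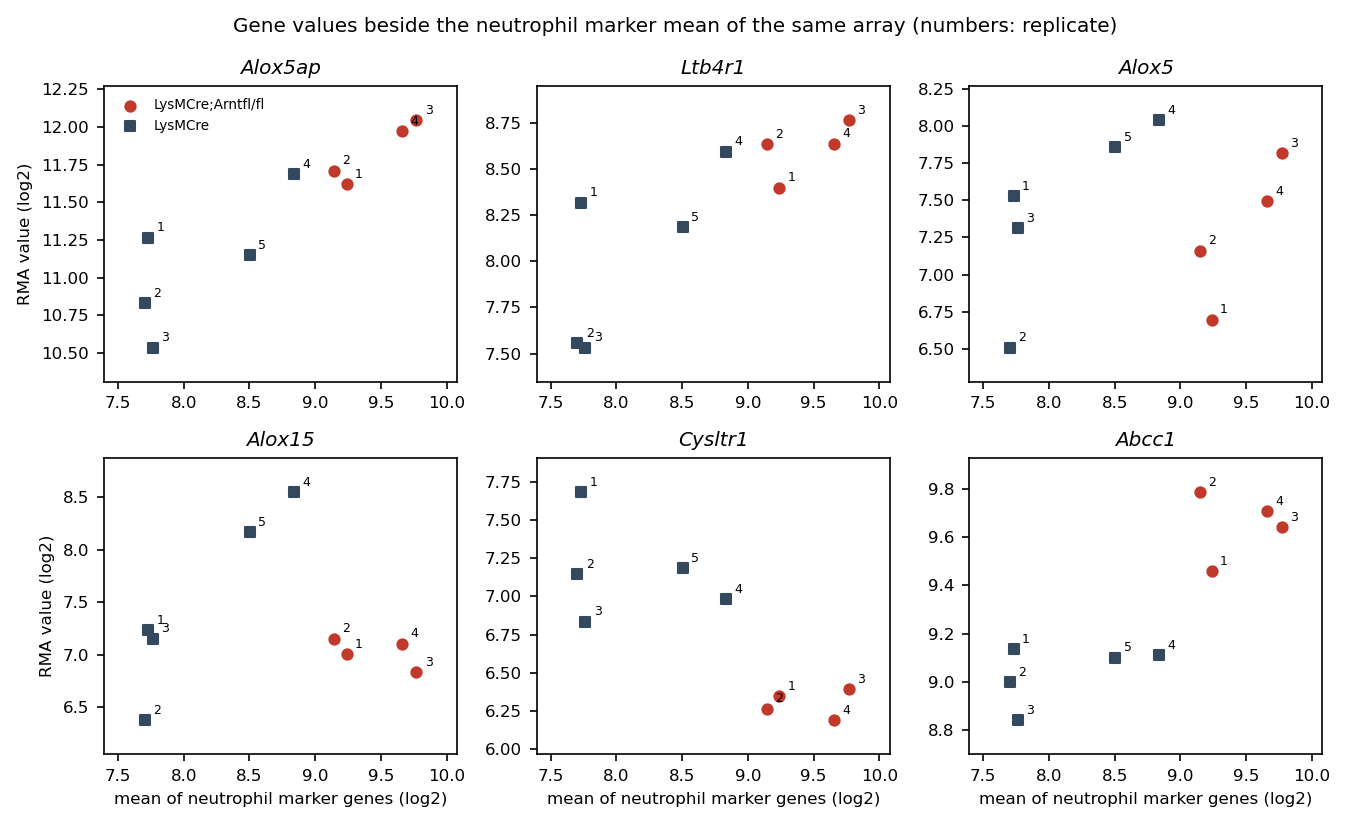
RMA value (log2) of 6 genes on each array against the mean of 13 neutrophil markers on that array, LysMCre;Arntfl/fl as circles and LysMCre as squares, with replicate numbers. LysMCre replicate 4 has the highest marker mean of its genotype, 8.84, and the highest Alox5ap, Ltb4r1, Alox5 and Alox15, while all Cysltr1 values of LysMCre;Arntfl/fl lie below 6.40.

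Neutrophils are cells in which 5-lipoxygenase, FLAP and BLT1 are abundant, and the values of their markers stand here beside those of the pathway genes. Among the LysMCre arrays, replicate 4 had the highest marker mean (8.84) and also the highest value of Alox5ap, Ltb4r1, Alox5 and Alox15, and replicates 1 to 3, at 7.70 to 7.76, had marker means below 8. The order was not the same throughout, since LysMCre replicate 1 (marker mean 7.73) had more Alox5ap and Ltb4r1 signal, 11.27 and 8.32, than LysMCre replicate 5 (marker mean 8.50), with 11.15 and 8.18. With the mean of the neutrophil markers as a covariate, limma gave log2 fold changes of -0.09 for Alox5ap (adjusted p = 0.963) and -0.22 for Ltb4r1 (adjusted p = 0.907), opposite in sign to the values without it. Those of Ephx2 (0.40, adjusted p = 0.721), Cysltr1 (-0.68, adjusted p = 0.629), Pla2g4a (-0.52, adjusted p = 0.581), Abcc1 (0.48, adjusted p = 0.597) and Gpr31b (-0.76, adjusted p = 0.688) kept their sign and none was called. Alox15 and Alox5 had -2.03 and -1.48 in that fit (adjusted p = 0.336 and 0.422). The marker means of the genotypes did not overlap, so that this fit, with 1 slope for both, extends that slope past the range of either genotype, and it called 0 of all probe sets. Of markers named after their values were seen, the neutrophil surface gene Ly6g averaged 7.46 in LysMCre;Arntfl/fl and 6.11 in LysMCre macrophages, and the granule enzyme gene Mpo averaged 5.80 in LysMCre;Arntfl/fl and 5.76 in LysMCre macrophages. The part of neutrophil RNA in these differences was not tested.

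**Figure D4:**
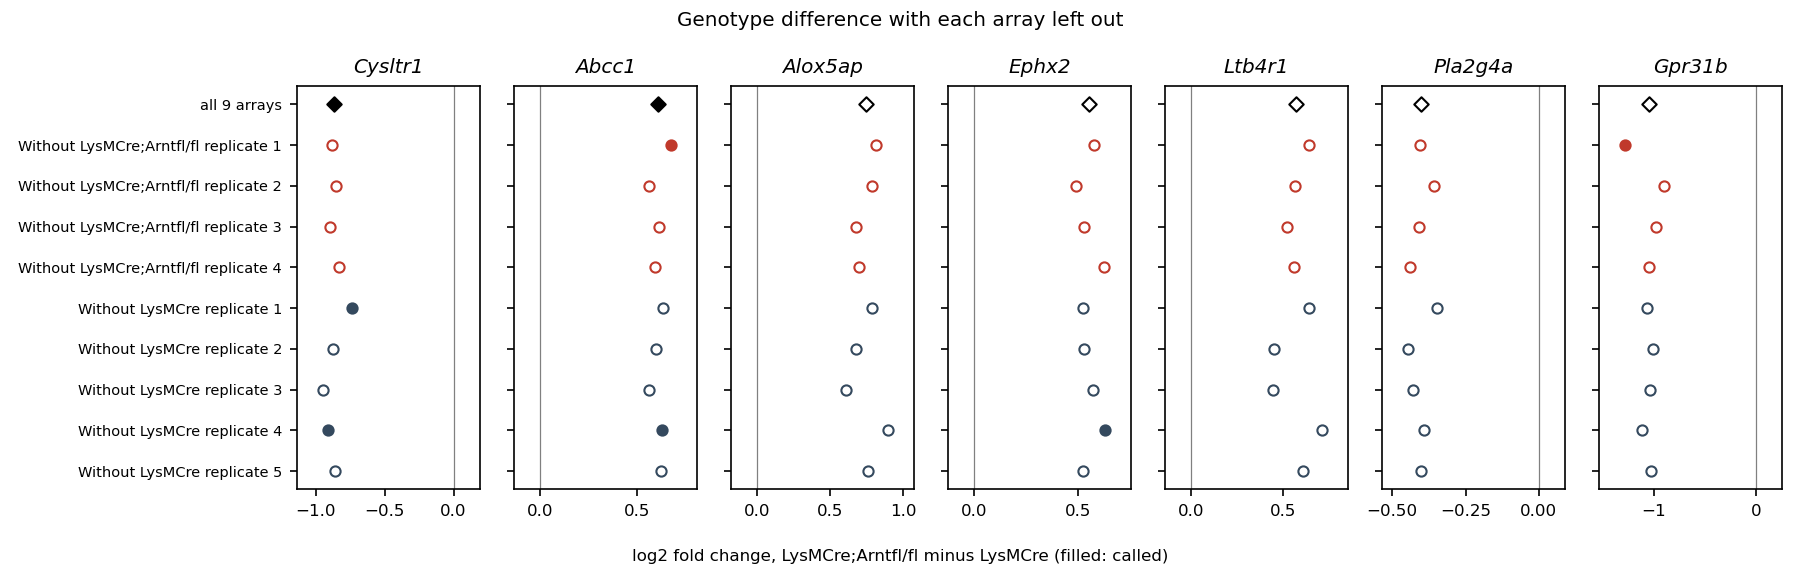
Log2 fold change, LysMCre;Arntfl/fl minus LysMCre, of 7 genes with all 9 arrays (diamonds) and with each array left out in turn (circles), filled where the gene was called. The direction never turns for these genes, while Cysltr1 and Abcc1 are called in 2 of 9 such fits each.

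Promoter sequences from RefSeq (GRCm38.p6, 250 bases before to 50 after the start site) were matched for 6 of the 10 genes, in 7 windows. Alox5ap, Alox15, Ephx2 and the called gene Cysltr1 had no window, so that the motif counts below leave them out. Windows are shown for a gene that was lower without overlap, for the central enzyme, and for the receptor gene with the higher mean, so that the DNA core bound by Arnt with its partners can be read against the values above. Capitals mark the Arnt core GCGTG or ACGTG and the GC box GGGCGG, on either strand, so that CACGC and CCGCCC are the same motifs on the opposite strand.
Pla2g4a chr1:149961241-149961540, minus strand: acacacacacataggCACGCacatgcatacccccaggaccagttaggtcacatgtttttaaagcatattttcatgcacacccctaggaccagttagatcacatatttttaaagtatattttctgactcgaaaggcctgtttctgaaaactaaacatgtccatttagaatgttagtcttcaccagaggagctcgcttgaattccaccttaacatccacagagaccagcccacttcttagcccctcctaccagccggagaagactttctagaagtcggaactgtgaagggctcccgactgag
Alox5 chr6:116461129-116461428, minus strand: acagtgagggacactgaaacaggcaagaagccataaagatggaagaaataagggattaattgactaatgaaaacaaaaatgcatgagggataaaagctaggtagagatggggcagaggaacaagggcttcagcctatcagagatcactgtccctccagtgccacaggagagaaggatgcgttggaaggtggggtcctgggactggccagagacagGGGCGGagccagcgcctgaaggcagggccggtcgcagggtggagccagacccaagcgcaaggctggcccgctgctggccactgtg
Ltb4r1 chr14:55765712-55766011, plus strand: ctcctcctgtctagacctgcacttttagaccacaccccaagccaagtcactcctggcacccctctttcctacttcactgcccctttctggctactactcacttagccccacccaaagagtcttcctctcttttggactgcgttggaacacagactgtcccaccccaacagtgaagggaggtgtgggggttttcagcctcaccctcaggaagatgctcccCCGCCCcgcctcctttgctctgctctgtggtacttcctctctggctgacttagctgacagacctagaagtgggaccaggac
The Pla2g4a window shown held 1 GCGTG, on the opposite strand and 235 bases before the start site. Another Pla2g4a window, chr1:149922390-149922689, held neither Arnt core and is not shown. The window shown was the single one of the 7 with either Arnt core, and 43.8% of all 32851 windows of the same length hold one (ACGTG 19.6%, GCGTG 32.4%). The GC box stood 35 bases before the start site of Alox5 and 31 bases before that of Ltb4r1, and 3 of the 7 windows held it, against 35.7% of all windows. These matches describe letters in short windows and say nothing of binding.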

How the data were processed

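RNA of macrophages sorted as CD45+, CD11b+ and F4/80+ was amplified from 1.5 ng per mouse with the WT PLUS kit and read on Mouse Gene 2.0 chips (Affymetrix). Processing by the authors ran in Expression Console with RMA, which corrects the background, quantile-normalizes and summarizes probes, and deposited log2 values. Later steps used SAM and, by the submitters' processing notes, Partek 6.6. No annotation release is named in the sources used here.

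Of 34365 probe sets, 23521 carried 1 symbol, 1820 several and 9024 none. Those with more than 1 symbol entered the tests but stand for no gene. The contrast LysMCre;Arntfl/fl minus LysMCre was fitted with lmFit and eBayes of limma 3.58.1 (R 4.3.3), with Benjamini-Hochberg adjustment over every probe set of the table, and checked on simulated data. In place of SAM, limma was used with the study's thresholds. The fold change is the difference of mean log2 values. Intervals are 95% intervals of limma's moderated statistic. The number of arrays limits the precision.

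Named were the 10 genes, Arnt, every called gene and the 2 largest changes of each pathway list, the 5 genes most alike to each of the 3 most variable genes, and markers. Genes and lists were chosen with earlier results of these data known. Markers of 8 cell types were averaged. Beside the macrophage, neutrophil and eosinophil lists of the report, the mean log2 levels in LysMCre;Arntfl/fl arrays were 4.96 to 5.77 for mast cells, 7.09 to 7.31 for platelets, 8.19 to 9.06 for epithelium, 6.90 to 7.01 for dendritic cells and 7.18 to 7.95 for B cells. In LysMCre arrays they were 4.68 to 5.09 for mast cells, 6.90 to 7.24 for platelets, 7.41 to 9.69 for epithelium, 6.69 to 7.24 for dendritic cells and 7.38 to 8.35 for B cells. The 24 alternatives covered the variance model, array weights, scaling, probe set filters, SAM-type d scores from 100 permutations, the methods' t-test, other thresholds, the replicate block, a neutrophil covariate and leaving out each array.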

Additional observations from a re-analysis of the deposited data

How the results depend on the processing

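Limma called 49 probe sets higher and 52 lower in LysMCre;Arntfl/fl. The counts were 87 and 80 with array weights, 98 and 106 with the brighter probe sets, 135 and 168 at an adjusted p below 0.10, 1 and 3 with the unpaired t-test, and 0 and 0 with the neutrophil covariate. Without 1 array they ranged from 0 to 74 and from 1 to 75. Of the 10 genes, 0 were called lower after further quantile normalization (Cysltr1, adjusted p = 0.0518), with the t-test (0.189) and with the covariate (0.629), and 0 to 1 without 1 array, where 0 to 1 was called higher. Of the other pathway genes, 0 were called higher with the t-test and the covariate, and 0 to 1 without 1 array. Gpr31b, 1 gene, was called lower with array weights, the brighter probe sets, probe sets with 1 symbol, SAM-type scores and an adjusted p below 0.10, and 0 to 1 gene without 1 array.

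The replicate numbers shared by the genotypes did not pair the arrays (same-number correlations of -0.12, -0.0715, -0.000463 and 0.166). With the replicate block 3 probe sets were called higher and 2 lower, 0 of the 10 genes (Cysltr1, adjusted p = 0.173) and 0 other pathway genes (Abcc1, 0.187). Arnt kept its call in 4 of 9 fits that left out 1 array, and its highest adjusted p was 0.0883, in the fit that left out LysMCre;Arntfl/fl replicate 4. It lost its call with the replicate block (0.138), the t-test (0.107) and the covariate (0.490).

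Under the neutrophil covariate the sign turned for Alox5ap (-0.090), Ltb4r1 (-0.22), Lta4h (-0.35), Ltc4s (0.14), Fpr2 (-0.078), Pla2g15 (0.061) and Alox8 (0.012). Without 1 array it turned for Ltc4s (-0.11 to 0.092) and Alox5 (-0.39 to 0.041). The cause was not tested.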

Other observations

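The genes whose values over the 9 arrays were most like those of the 3 most variable lipoxygenase and leukotriene genes were named as a description, out of 19394 genes compared, and the arrays include both genotypes. For Alox5ap they were Hp (haptoglobin, Pearson's r = 0.976), Mcemp1 (0.975), Pygl (liver-type glycogen phosphorylase, 0.966), Adipor1 (0.965) and Cd300lf (0.965). The log2 fold changes of these genes were 1.36, 1.15, 0.77, 0.47 and 0.77, all positive as for Alox5ap. For Alox15 they were Nop10 (0.952), Prdx2 (a peroxiredoxin, 0.945), Gnb5 (0.940), Slc25a1 (the mitochondrial citrate carrier, 0.938) and Them4 (0.937), with log2 fold changes between -0.24 and -0.09. For Alox5 they were Zmynd19 (0.940), Mmp11 (0.922), Plac8 (0.913), Stac (0.913) and She (0.907), with log2 fold changes between -0.09 and 0.03. The lists held no gene in common.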
